A study of Mus musculus with 8 samples.

Results

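The clustered histone genes are the 68 of 23337 genes in the deposited count table whose symbols start with Hist1h, Hist2h, Hist3h or Hist4h. The rule that picks them reads the symbol and no measured value. RNA was sequenced from 2 bone marrow populations of C57BL/6 mice aged 4 months. Every group carried JAK2V617F/+, an activating allele of a kinase that relays erythropoietin signals, so the comparison groups carried it too. The erythroblasts were TER119-positive cells, and the progenitors were Kit-positive cells taken from the lineage-negative fraction. Each population came as Plek2+/+ and as Plek2-/-, which lacks pleckstrin 2, an actin-associated protein of red cell precursors, with 2 libraries in each of the 4 groups. No label ties the 2 libraries of a group to separate mice, and the p-values measure the spread between libraries, which may be technical.

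Histones are the proteins that package DNA. H2A, H2B, H3 and H4 form the core around which DNA is wound, and the linker histone H1 sits on the DNA between cores. The clustered genes are the replication-dependent ones: they are transcribed mainly in S phase, have no introns, and give messenger RNAs that end in a conserved stem-loop in place of a poly(A) tail. The stem-loop binding protein SLBP and the U7 small nuclear RNA direct that 3′ end. Erythroblasts divide several times while they condense their chromatin, and then expel the nucleus.

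The 68 members lay in 4 clusters on GRCm38, the build also called mm10. Hist1 spanned chr13:21715763-23934851 with 54 members, of which 6 were H1, 13 H2a, 15 H2b, 9 H3 and 11 H4. Hist2 spanned chr3:96219865-96270132 with 10 members (4 H2a, 2 H2b, 3 H3 and 1 H4). Hist3 covered only 7911 bases at chr11:58948920-58956830 and held Hist3h2ba, Hist3h2a and the pseudogene Hist3h2bb-ps. Hist4 was the single gene Hist4h4 at chr6:136801553-136804415. By class there were 6 H1, 18 H2a, 19 H2b, 12 H3 and 13 H4 genes.

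The stem-loops are printed because they are the element that sets these RNAs apart from others, 5′ to 3′ in DNA letters, with the stem in capitals and the loop in lower case. They were read from the GENCODE vM21 transcripts. The search allowed 150 bases after the stop codon and asked for 16 bases: a stem of 6 that starts with GG, a loop of 4 that starts with T, and a second arm that ends with CC, with at least 5 of 6 bases paired. Of the 51 members whose transcript model ran at least 40 bases past the stop codon, 46 held a match, and 16 other coding models ended sooner. The same search found a match in 174 of 20839 other coding genes, or 0.835%. The sequences were these:
26 members of H1, H2a, H2b and H3: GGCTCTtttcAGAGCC
Hist1h1t, Hist1h2bb, Hist1h2bk, Hist1h3c, Hist1h3e and Hist1h3f: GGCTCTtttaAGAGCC
Hist1h3g: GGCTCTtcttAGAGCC
Hist2h2ac: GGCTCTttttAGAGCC
Hist1h4c, Hist1h4d, Hist1h4f, Hist1h4h, Hist1h4m, Hist1h4n and Hist4h4: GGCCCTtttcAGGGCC
Hist1h4i and Hist2h4: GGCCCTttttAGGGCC
Hist1h4b and Hist1h4j: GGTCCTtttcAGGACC
Hist1h4a: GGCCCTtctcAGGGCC

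The stem therefore split the members by class. All 34 matched members of H1, H2a, H2b and H3 had the stem GGCTCT, and the 12 matched H4 genes had GGCCCT or GGTCCT. The match of the 26 members began 25 to 59 bases after the stop codon. The 5 members that met the length limit without a match were Hist1h1a, Hist1h2bc, Hist1h2bq, Hist1h2br and Hist2h2be. The model of Hist1h1a ended 48 bases past the stop codon, too soon to hold the latest of the matches above. Hist1h2bc, Hist1h2bq and Hist1h2br span more bases in the genome than in their transcripts. Genomic bases after their stop codons may therefore not have been searched. For these 4 genes the search cannot tell whether a stem-loop is absent.

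Promoters are printed for 4 members described below, picked after their values were seen: Hist3h2ba and Hist2h2ab, with the highest and the lowest population difference, Hist3h2a from the cluster of the first, and Hist1h1c, the leading linker gene. They come from the RefSeq promoter table on GRCm38.p6, as the 250 bases before the RefSeq start. Capitals mark CCAAT (bound by the trimer NF-Y), TATAAA, ATTTGCAT (the octamer bound by Oct-1), AAACACA (known from H1 promoters) and AGATAA (bound by GATA factors), each on either strand. CCNCACCC, a form of the KLF1 site, was searched too and was in none of these 4.
Hist3h2ba, chr11:58948661-58948910, plus strand: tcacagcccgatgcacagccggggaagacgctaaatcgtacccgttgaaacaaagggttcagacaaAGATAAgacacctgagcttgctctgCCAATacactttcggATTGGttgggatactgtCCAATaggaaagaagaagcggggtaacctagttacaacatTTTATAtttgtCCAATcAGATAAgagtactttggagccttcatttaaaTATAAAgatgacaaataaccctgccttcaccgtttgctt
Hist3h2a, chr11:58954435-58954684, plus strand: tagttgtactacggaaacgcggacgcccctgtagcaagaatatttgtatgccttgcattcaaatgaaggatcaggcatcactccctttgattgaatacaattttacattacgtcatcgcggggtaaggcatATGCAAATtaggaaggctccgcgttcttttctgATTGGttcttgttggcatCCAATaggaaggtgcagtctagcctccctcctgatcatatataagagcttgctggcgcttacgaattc
Hist1h1c, chr13:23738557-23738806, plus strand: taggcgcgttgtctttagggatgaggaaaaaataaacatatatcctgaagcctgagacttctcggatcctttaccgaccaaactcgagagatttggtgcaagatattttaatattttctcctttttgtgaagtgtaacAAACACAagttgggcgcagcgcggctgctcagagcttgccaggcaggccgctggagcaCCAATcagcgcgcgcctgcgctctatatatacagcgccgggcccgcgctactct
Hist2h2ab, chr3:96219635-96219884, plus strand: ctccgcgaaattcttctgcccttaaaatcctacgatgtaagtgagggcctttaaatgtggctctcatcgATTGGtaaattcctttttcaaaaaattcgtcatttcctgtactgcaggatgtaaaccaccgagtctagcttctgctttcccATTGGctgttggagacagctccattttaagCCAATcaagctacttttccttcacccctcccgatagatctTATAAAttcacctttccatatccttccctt

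The promoter of Hist3h2ba held 4 CCAAT, 2 TATAAA and 2 AGATAA matches, the most of these 4. Across the 62 windows matched to 61 members, CCAAT was in 82.3%, against 33.8% of all 32851 promoter windows of that length. It was in every H1, H2a and H2b window but in only 25% of H4 windows. TATAAA was in 46.8% of member windows against 12.4% of all, and AGATAA in 17.7% against 9.99%. CCNCACCC was in 8.06% of member windows and in 14.9% of all. The octamer ATTTGCAT was in 41.2% of the H2a and of the H2b windows and in none of the other classes, against 1.60% of all promoters. AAACACA was in 5 of the 6 H1 windows, against 6.25% of all. Some H2a and H2b windows overlap on opposite strands, such as those of Hist1h2ae and Hist1h2bg and of Hist1h2ag and Hist1h2bj. A match in the shared bases counts in both classes, so their percentages are not independent. A match is a run of letters and was not tested as a binding site.

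Library totals ran from 16038035 to 23521726 counts. Levels are counts scaled to a common library size (CPM) after trimmed mean of M-values (TMM) scaling. The erythroblast markers Epor, Klf1, Slc4a1, Alas2 and Tfrc summed to between 31647 and 34647 CPM in the erythroblast libraries and to between 886 and 959.6 CPM in the progenitor libraries. The 8 progenitor markers summed to between 186 and 258 CPM in erythroblasts and to between 1010 and 1156 CPM in progenitors. Plek2 itself was at 108 and 129 CPM in erythroblasts labelled Plek2+/+ and at 48.2 and 53.1 CPM under the Plek2-/- label. In progenitors it went against the label, with 1.36 and 0.708 CPM in Plek2+/+ and 5.06 and 5.66 CPM in the libraries labelled Plek2-/-. Xist was at 2522 to 3043 CPM in the 4 Plek2+/+ libraries and at 2.13 to 3.60 CPM in the 4 others, and the Y-linked gene Ddx3y had the opposite pattern. Sex and the Plek2 label therefore cannot be told apart in any comparison between labels.

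Of the 68 members, 59 had enough reads to be tested. Hist1h2ao, Hist1h2ap, Hist1h2bq, Hist1h2br, Hist1h4m and Hist2h2aa2 had no read in any of the 8 libraries, which allows at most 3 counts, or 0.128 to 0.187 CPM before TMM scaling. Hist2h2aa1 had 2 reads in all, Hist1h2ba 9 and Hist1h2aa 23. Each of the 6 genes without reads shared every 50-base window of its coding part with another annotated gene. In all, 51 members had under 50% unique windows and 12 had none, and only Hist1h1a, Hist1h1b, Hist1h1t, Hist2h2bb, Hist2h2be and Hist4h4 were unique throughout. How reads with several matching places were counted is not given in the sources used here, so values of single near-identical genes are uncertain. If such reads were dropped, they are missing from the sums and shares of the classes too. The classes differ in their unique windows, and the size of such a loss was not tested.

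Clustered histone genes took 4.40 to 4.71% of all counts in erythroblasts and 1.12 to 1.29% in progenitors. Their summed level was 57377 and 63791 CPM in Plek2+/+ erythroblasts against 59791 and 57991 CPM under the other label. It was 9734 and 9311 CPM in Plek2+/+ progenitors and 9728 and 8660 CPM in those labelled Plek2-/-. All 4 erythroblast libraries stood above all 4 progenitor libraries, by 6.36 times in the means of Plek2+/+ and 6.41 times under the other label. Between labels the mean sums differed by less than the replicates of at least 1 group did, with ratios of 0.972 in erythroblasts and 0.965 in progenitors. In a bulk sample, a larger share of cells in S phase and more histone RNA per cell cannot be told apart, nor can fewer cells of a type and less RNA per cell.

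**Figure D1:**
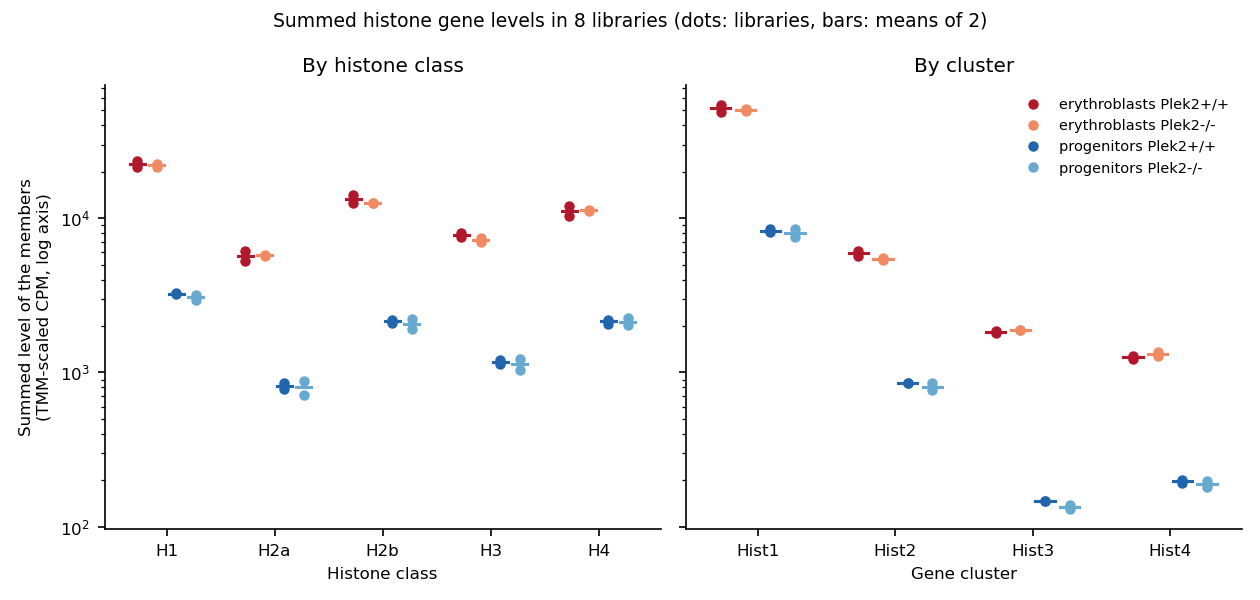
Summed TMM-scaled CPM on a log axis of the members of each histone class (left) and each cluster (right), with a dot for each of the 8 libraries and a bar for each group mean of 2. In every class and cluster the erythroblast libraries lie above the progenitor libraries, and the dots of the Plek2 labels lie close together.

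The 5 classes rose by similar factors. H1 genes summed to 21632 and 23415 CPM in Plek2+/+ erythroblasts and to 3276 and 3217 CPM in Plek2+/+ progenitors. H2b genes summed to 12578 and 14130 CPM against 2200 and 2104 CPM, and H4 genes to 10369 and 12079 CPM against 2204 and 2077 CPM. These gave ratios of 6.94 for H1, 6.21 for H2b and 5.24 for H4, and the ratios for H2a and H3 were 6.98 and 6.66. Under the Plek2-/- label the ratios were 7.21 for H1, 7.19 for H2a, 6.08 for H2b, 6.41 for H3 and 5.27 for H4. H4 had the lowest ratio under both labels. The share of H4 in all member counts was 18.1 to 19.2% in the 4 erythroblast libraries and 22.3 to 23.4% in the 4 progenitor libraries, and the ranges did not overlap. The share of H1 moved the other way, from 32.7 to 34.5% in progenitors to 36.7 to 37.7% in erythroblasts. By cluster the ratio was 6.20 for Hist1, 6.92 for Hist2, 12.4 for Hist3 and 6.38 for Hist4 in Plek2+/+, and 6.23, 6.73, 14.0 and 6.98 under the other label. These are descriptions of sums with no test.

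Gene by gene, all 59 tested members were called higher in erythroblasts than in progenitors in Plek2+/+ and again under the Plek2-/- label, by edgeR at an adjusted p below 0.05. The background of genes called higher was 36% in Plek2+/+ and 37.5% under the other label. Every tested member was called and more than 2-fold higher, where the background was 17.9% and 18.7%, and 58 of 59 were more than 4-fold higher, where it was 8.16% and 8.09%. The median log2 fold change of the members was 2.63 in Plek2+/+ and 2.67 under the Plek2-/- label, beside -0.06 and -0.07 over all 13365 genes tested. The contrasts under the labels share no library. With scaling by library totals alone, the median of all genes moved to -0.87 and -0.86 and the member medians to 1.82 and 1.89. On that scale 58 of 59 members were still called higher under each label, and Hist2h2ab was not.

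Class medians of the log2 fold change were 2.69 for H1, 2.67 for H2a, 2.57 for H2b, 2.71 for H3 and 2.43 for H4 in Plek2+/+. Under the other label they were 2.88, 2.67, 2.59, 2.76 and 2.35. The medians by cluster were 2.57 and 2.62 for Hist1, 2.71 and 2.83 for Hist2, 3.95 and 4.14 for Hist3, and 2.67 and 2.80 for Hist4h4. The class medians lay close together, and the 3-member Hist3 cluster had the highest cluster median. The 30 tested members with the GGCTCT stem had medians of 2.65 and 2.68, and the 11 with the other stems, all H4, had 2.40 and 2.32.

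**Figure D2:**
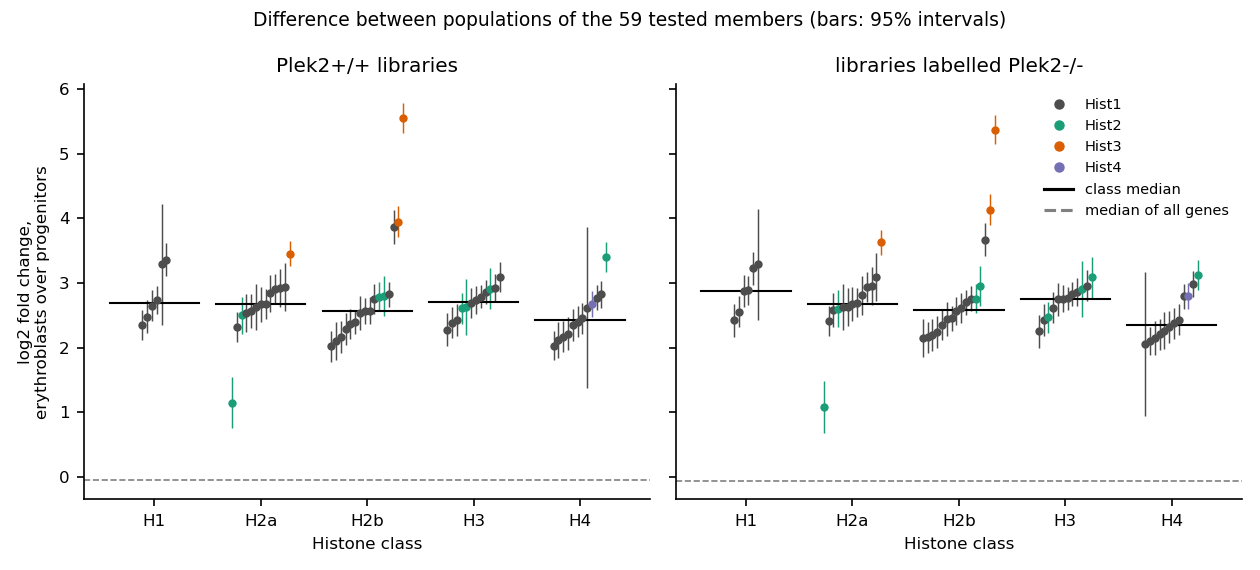
log2 fold change of erythroblasts over progenitors for the 59 tested members, by histone class (x axis) and coloured by cluster, for Plek2+/+ (left) and the libraries labelled Plek2-/- (right); vertical bars are 95% intervals, black lines class medians and the dashed line the median of all genes. Most members lie near the class medians of 2.35 to 2.88, with Hist3h2ba at 5.56 and 5.38 above and Hist2h2ab at 1.14 and 1.08 below.

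The linker histones, whose H1 proteins close nucleosomes against each other, were led by Hist1h1c (chr13:23738808-23740367, plus strand). Hist1h1c was at 7536 and 7990 CPM in Plek2+/+ erythroblasts, 7324 and 7124 CPM in those labelled Plek2-/-, 778 and 734 CPM in Plek2+/+ progenitors and 797 and 748 CPM in progenitors of the other label. The groups of the 2 populations did not come near each other. Its log2 fold change between populations was 3.36 (SE 0.12, edgeR adjusted p = 2.74e-11) and 3.23 (SE 0.12, edgeR adjusted p = 3.92e-11). The next were Hist1h1a at 2.65 and 2.88, Hist1h1d at 2.74 and 2.88, Hist1h1e at 2.48 and 2.42, and Hist1h1b at 2.35 and 2.55, each called. Hist1h1t, the testis-specific linker gene, had only 3.86 to 9.39 CPM in erythroblasts and 0.438 to 0.973 CPM in progenitors, and its log2 fold change was 3.29 under each label, with an SE of 0.43 and 0.39.

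The makeup of H1 differed between populations. Hist1h1c gave 34.8 and 34.1% of H1 counts in Plek2+/+ erythroblasts and 32.5 and 32.9% in those labelled Plek2-/-. It gave 23.8 and 22.8% in Plek2+/+ progenitors and 25.1 and 25.4% in those labelled Plek2-/-. Hist1h1b gave 12.8 to 14.1% in the 4 erythroblast libraries and 16.5 to 18% in the 4 progenitor libraries, and Hist1h1e 13.8 to 15.9% and 18.4 to 20.6%. For these 3 genes the ranges of the 2 populations did not overlap. Hist1h1d lay between 17.3 and 19.1% in erythroblasts and 17.9 and 18.4% in progenitors, and Hist1h1a between 19.3 and 20.6% and 19.1 and 22.5%, so both overlapped. These shares sum to 100% within a library and are not independent of each other.

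**Figure D3:**
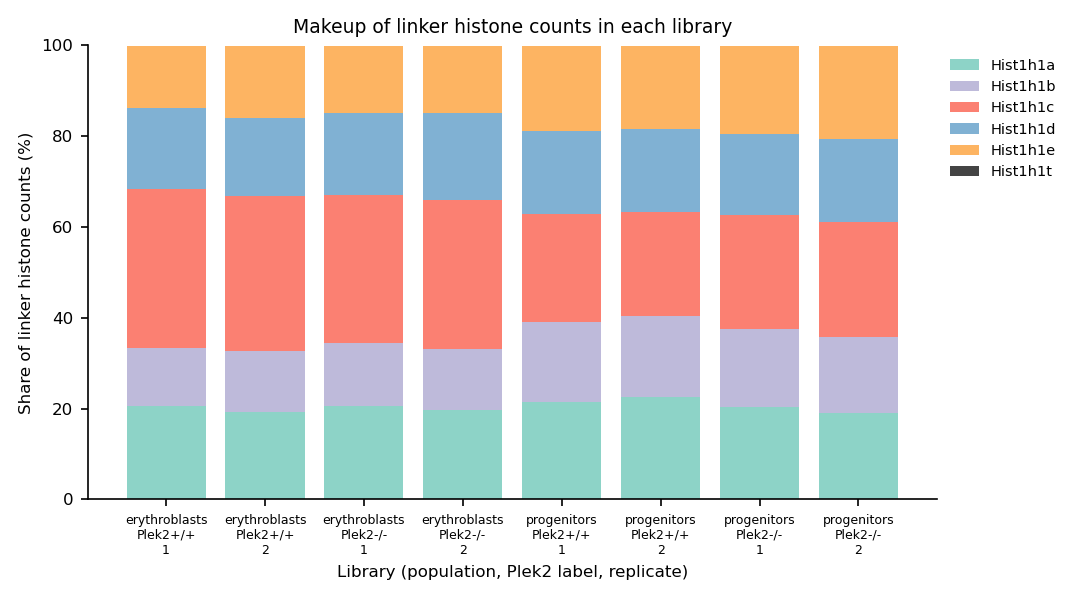
Share of linker histone counts (percent, y axis) from each of the 6 Hist1h1 genes in the 8 libraries (x axis, population, Plek2 label and replicate). The band of Hist1h1c is wider in the 4 erythroblast libraries (32.5 to 34.8%) than in the 4 progenitor libraries (22.8 to 25.4%), and the bands of Hist1h1b and Hist1h1e are narrower.

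The Hist3 cluster had the largest summed ratio, and Hist3h2ba the largest fold of the 59 members. Hist3h2ba (chr11:58948920-58949533, plus strand), which encodes an H2B, was at 209 and 233 CPM in Plek2+/+ erythroblasts, 233 and 240 CPM in those labelled Plek2-/-, 4.98 and 4.45 CPM in Plek2+/+ progenitors and 5.76 and 5.60 CPM in those labelled Plek2-/-. That was a 47.1-fold and a 41.6-fold difference, with log2 values of 5.56 (SE 0.11, edgeR adjusted p = 2.82e-13) and 5.38 (SE 0.10, edgeR adjusted p = 3.34e-13). The populations were separated in every library. The pseudogene Hist3h2bb-ps (chr11:58954048-58954512, minus strand) was at 155 and 172 CPM and at 188 and 172 CPM in erythroblasts, and at 9.36 to 11.2 CPM in progenitors, with log2 fold changes of 3.95 and 4.14 (SE 0.11 each). Of its 50-base windows, 30.0% were shared with Hist3h2ba. Hist3h2a (chr11:58954685-58956830, plus strand), the H2A gene of the cluster, was at 1444 to 1473 CPM in the 4 erythroblast libraries and at 115 to 133 CPM in the 4 progenitor libraries, and its log2 fold changes were 3.45 and 3.63 (SE 0.09 each). It was the most abundant H2a gene by CPM, but 87.8% of its windows were unique, against 28.5% in Hist1h2ab and 47.7% in Hist1h2ak. Hist3h2a and Hist3h2bb-ps are divergent with 172 bases between them, so the printed Hist3h2a window holds the whole gap. The annotated gene Trim17 overlaps Hist3h2a on the same strand and had 0 to 11 counts a library.

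Genes near the Hist3 cluster that are no histones gave mixed values. Btnl10, 21762 bases from Hist3h2ba, rose more than any member, with log2 fold changes of 6.50 and 6.47. Zfp39 rose by 2.13 and 2.31 and Rnf187 by 1.14 and 1.22, while Trim11 fell by 0.36 and 0.62 (edgeR adjusted p = 0.00161 and 1.64e-05). Of the 16 tested genes within 50 kb of a member in any cluster, 8 were called higher and 3 lower in Plek2+/+, and 9 and 3 under the other label, with a median of 0.52 under each.

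High values also occurred in other clusters. Hist1h2bp, an H2B gene that exceeded Hist3h2a under both labels, was at 122 to 156 CPM in erythroblasts and 9.10 to 11.3 CPM in progenitors, with log2 fold changes of 3.87 and 3.67 (SE 0.12 each). Hist2h4, the H4 gene of the Hist2 cluster (chr3:96261682-96263311, minus strand), was at 579 to 707 CPM and 62.2 to 76.5 CPM, with 3.40 and 3.12 (SE 0.11 each). Both populations stayed apart for each of these genes. Hist2h4 has 93.9% unique windows and Hist1h2bp 29.6%.

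At the other end was Hist2h2ab, an H2A gene at chr3:96219865-96220308 on the plus strand. Hist2h2ab was at 22.1 and 32.1 CPM in Plek2+/+ erythroblasts, 26.6 and 23.4 CPM in those labelled Plek2-/-, 12.5 and 12 CPM in Plek2+/+ progenitors and 13.9 and 9.89 CPM in progenitors of the other label. The populations did not overlap, but the fold was the smallest of the 59, with log2 values of 1.14 (SE 0.18, edgeR adjusted p = 8.49e-05) and 1.08 (SE 0.18, edgeR adjusted p = 0.000139). With library totals in place of TMM the values were 0.32 and 0.29, with edgeR adjusted p = 0.113 and 0.156. Its 3′ end lies 52 bases from that of Hist2h2ac on the opposite strand, and Hist2h2ac was at 470 to 587 CPM against 81.3 to 105 CPM, with 2.50 and 2.60. The gene Bola1, on the opposite strand, starts 156 bases from Hist2h2ab and had 0.30 in Plek2+/+ (edgeR adjusted p = 0.0531) and 0.57 under the other label (edgeR adjusted p = 0.00141). The other low members were Hist1h2bk at 2.02 and 2.16, Hist1h4a at 2.03 and 2.10, Hist1h2bc at 2.10 and 2.14 and Hist1h4n, with few reads (0.188 to 3.05 CPM), at 2.62 and 2.05. Hist1h4n shared every coding window with Hist1h4m, so its reads from the coding part cannot be placed for certain.

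The rest of the Hist2 cluster stayed close to the member median. Hist2h2bb, a unique H2B gene, was at 3810 to 4421 CPM in erythroblasts and 537 to 617 CPM in progenitors, with log2 fold changes of 2.79 and 2.76. Hist2h2be had 2.80 and 2.95, Hist2h3b 2.60 and 2.47, Hist2h3c1 2.91 and 3.09 and Hist2h3c2 2.63 and 2.91. Hist2h3c1 shared every coding window with Hist2h3c2, and Hist2h3c2 had no unique one, so reads from the coding part cannot be placed for certain. The parts outside it were not compared. Hist4h4, the lone H4 gene of its cluster and unique throughout, was at 1225 to 1359 CPM in erythroblasts and 181 to 202 CPM in progenitors, with 2.67 and 2.80.

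The 3 most abundant genes of a core class lay on both sides of the class medians in H2a and H3. In H2b they lay above the medians and in H4 under them. Among H2a genes these were Hist3h2a, Hist1h2ab (2.57 and 2.58) and Hist1h2ak (2.91 and 2.70). Among H2b genes they were Hist2h2bb, Hist1h2bb (2.76 and 2.61) and Hist1h2bn (2.83 and 2.76). H3 was led by Hist1h3f (3.09 and 2.96), Hist1h3b (2.93 and 2.76) and Hist1h3e (2.27 and 2.25), and H4 by Hist1h4d (2.17 and 2.20), Hist1h4h (2.22 and 2.15) and Hist1h4c (2.35 and 2.32). The 3 most abundant H4 genes thus had log2 fold changes under the H4 median. Per kilobase of coding length, averaged over the 8 libraries, Hist1h1c stood first at 6461 CPM per kb, or 8.13% of the sum over members, before Hist2h2bb at 6074, Hist1h4d at 4924, Hist1h1a at 3993 and Hist1h2bb at 3762. The order depends on the length used: over its longest annotated transcript, Hist1h1c had 2647 CPM per kb and Hist1h1a 3459. It may also depend on how many reads could be assigned, which was not tested. Unique windows made up 78.1% in Hist1h1c, 100% in Hist2h2bb and Hist1h1a, 57.8% in Hist1h4d and 44.6% in Hist1h2bb.

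Some members are annotated with a longer 3′ end. AATAAA or ATTAAA, the poly(A) signals, were in the last 40 bases of the transcript of 17 members, 15 of them tested. Their median log2 fold change was 2.82 in Plek2+/+ and 2.99 under the other label, beside 2.57 and 2.61 for the 43 tested coding members without a signal. That group also holds the models that ended less than 40 bases past the stop codon, whose last 40 bases reach into the coding part. A signal further on would be missed there, so the split follows the annotation in part. Of the 10 members with the highest values in Plek2+/+, 6 had a signal, namely Hist3h2ba, Hist1h2bp, Hist3h2a, Hist2h4, Hist1h1c and Hist1h1t. Hist1h4a, among the lowest, had a signal as well. The reads do not tell which 3′ end was used.

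To see which members rose more or less than the pool, the counts were also scaled to the summed member counts of each library, a step chosen after the values above were seen. On that scale nearly every gene outside the pool is called lower, so the adjusted p lies close to the unadjusted one, and the background was 3.55% higher and 92.8% lower in Plek2+/+ and 3.51% and 92.9% under the other label. In Plek2+/+, 9 members were called higher and 18 lower than the pool by edgeR, and under the other label 11 and 19. The members called higher under both labels were Hist1h1c, Hist1h2bp, Hist1h3f, Hist2h4, Hist3h2a, Hist3h2ba and Hist3h2bb-ps, which is 77.8% of the first list and 63.6% of the second. Relative to the pool, Hist3h2ba had log2 fold changes of 2.88 and 2.69, Hist1h2bp 1.20 and 0.99, Hist3h2a 0.79 and 0.95, and Hist1h1c 0.69 and 0.54. The 16 called lower under both labels were 6 H2b, 6 H4, 2 H2a and 2 H3 genes and no H1 gene, or 88.9% and 84.2% of the lists. Among these, Hist2h2ab had -1.53 and -1.60, Hist1h2bk -0.65 and -0.52, Hist1h4a -0.64 and -0.58, and Hist1h4d -0.50 and -0.48. Leaving out 1 library at a time gave 19 to 31 calls in Plek2+/+ and 18 to 29 under the other label, the fewest without the first erythroblast library labelled Plek2-/-.

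Genes that act on histone RNA or DNA replication gave smaller differences. The lists here and below were read on the TMM scale only. Library totals alone moved the values of all genes down, so the direction of small differences depends on the scaling. Of 40 genes of DNA replication with poly(A) tails, 38 were called higher in erythroblasts and none lower in Plek2+/+, and 39 and none under the other label, with medians of 1.14 and 1.42. The cyclin gene Ccna2 had 2.40 and 2.37, the origin licensing factor Cdc6 2.18 and 2.41, and the ribonucleotide reductase subunit Rrm2 2.31 and 2.49. Of the 59 members, 42 exceeded the highest of these 40 genes in Plek2+/+ and 38 did under the other label. Other RNAs without tails rose less as well: of 12 tested, 11 were called higher and none lower under each label, with medians of 1.14 and 1.14. Among them, Scarna13 had 1.79 and 1.87 and Scarna10 1.77 and 1.52. The RNase RNAs Rmrp and Rpph1 were the most abundant of these, at 0.65 and 0.76 and at 0.82 and 0.85. Of the 59 members, 58 exceeded the highest of these 12 RNAs under each label. The molecule label is total RNA while the series text speaks of mRNA profiles, and the sources used here do not say whether tailed RNA was selected. The presence of Rpph1 at 8951 CPM or more in every library shows that reads of RNAs without tails were present.

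Regulators of histone genes differed among themselves. Slbp, which binds the stem-loop, was at 370 to 429 CPM in erythroblasts and 83.8 to 95.6 CPM in progenitors, a log2 fold change of 2.12 and 2.26 (edgeR adjusted p = 2.69e-10 and 1.40e-10). Zcchc6, a terminal uridylyl transferase, had 2.07 and 1.94. Lsm11, a part of the U7 particle, was lower at -0.66 and -0.58, and the endonuclease subunit Cpsf3 at -0.78 and -0.67. Of 20 such genes of 3′ end processing and decay, 12 were called higher and 4 lower in Plek2+/+, and 14 and 4 under the other label, with medians of 0.40 and 0.48. Npat, the coactivator of histone transcription, had 0.76 and 1.09, and Hinfp, the H4 promoter factor, 1.19 and 1.17. Of 16 genes of histone transcription, 10 were called higher and 2 lower under each label, with medians of 0.80 and 0.85. E2f2 had 3.83 and 3.59 and the cyclin E gene Ccne1 2.51 and 2.68. Of 22 histone chaperones, 14 were called higher and 3 lower in Plek2+/+, and 15 and 1 under the other label, with Asf1b at 2.04 and 1.92 and Mcm2, which is also in the replication list, at 1.43 and 1.66.

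Histone genes outside the clusters, which give tailed RNAs through the cell cycle, did not move together. Of 12 tested, 8 were called higher and 3 lower under each label, with medians of 0.61 and 0.65. H2afx, whose transcript can end in a stem-loop or a tail, had 2.47 and 2.53, close to the median of the clustered genes. Cenpa, the centromeric H3, had 1.47 and 1.40. H2afy, which encodes macroH2A, fell: it was at 103 to 152 CPM in erythroblasts and 590 to 788 CPM in progenitors, with -2.36 and -2.48. H2afj, 3829 bases from Hist4h4, had 0.82 and 0.96.

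**Figure D4:**
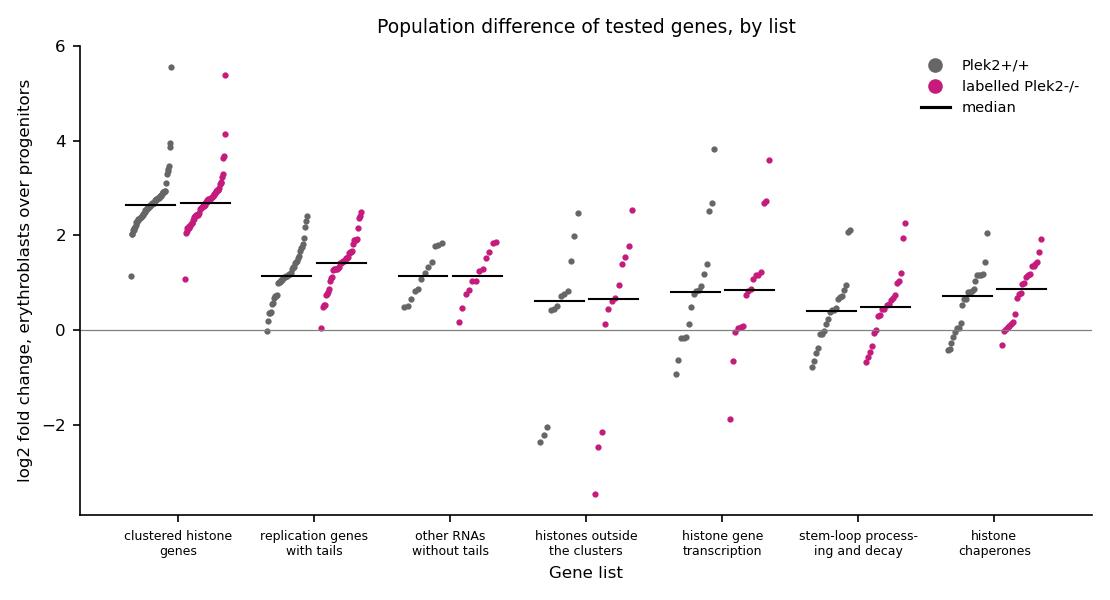
log2 fold change of erythroblasts over progenitors (y axis) for each tested gene, ordered by value within 7 gene lists (x axis), in Plek2+/+ (grey) and the libraries labelled Plek2-/- (magenta), with black lines at the medians. The clustered histone genes have medians of 2.63 and 2.67, the replication genes 1.14 and 1.42, and H2afy, a histone gene outside the clusters, lies at -2.36 and -2.48.

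Markers of other cell types also differed between the libraries. The 11 tested neutrophil markers summed to between 13507 and 22409 CPM in erythroblasts and to between 4393 and 25296 CPM in progenitors, and Ltf and the other markers were present in all groups. All 11 were called higher in erythroblasts in Plek2+/+ and all 11 lower under the Plek2-/- label, while the member median was 2.63 and 2.67 under these labels. The 5 primary granule markers summed to between 629 and 922 CPM in erythroblasts and to between 3675 and 4963 CPM in progenitors, and the 8 B cell markers to between 67.4 and 168 CPM and to between 236 and 311 CPM. Monocyte and macrophage markers summed to between 956 and 1257 CPM and to between 1641 and 2198 CPM, those of mast cells, basophils and eosinophils to between 842 and 2353 CPM and to between 989 and 2968 CPM, megakaryocyte markers to between 247 and 347 CPM and to between 177 and 197 CPM, and T and NK markers to between 20.2 and 30.3 CPM and to between 90.6 and 113 CPM. The part of these other cells in the population difference was not tested.

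Between the Plek2 labels no member was called. In erythroblasts, 0 of 59 members were called by edgeR and 0 had an unadjusted p below 0.05, where 2.84% of 12241 genes were called and 14.7% were below 0.05 unadjusted. In progenitors, 0 of 59 were called and 3 had an unadjusted p below 0.05, where 4.91% of 13168 genes were called and 17.3% were below 0.05 unadjusted. The difference of the label effects between populations was called for 0 of 59 members, with 0 at an unadjusted p below 0.05, against 5.55% and 18.2% of 13365 genes. DESeq2 and limma-voom also called 0 members in each of these 3 comparisons. Member medians were -0.01 in erythroblasts, -0.00 in progenitors and 0.02 for the difference of effects, beside 0.01, -0.01 and 0.04 over all genes.

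A p that misses the threshold does not show equal levels, so the intervals were read. In erythroblasts the 95% interval of the log2 fold change lay within 0.5 of 0 (1.41-fold) for 57 of 59 members, all but Hist1h1t and Hist1h4n. In progenitors it did for 54, all but Hist1h1t, Hist1h2ae, Hist1h4n, Hist2h3c2 and Hist3h2ba. For the difference of effects it did for 41. Larger differences than these limits were thus outside the intervals for most members in either population.

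**Figure D5:**
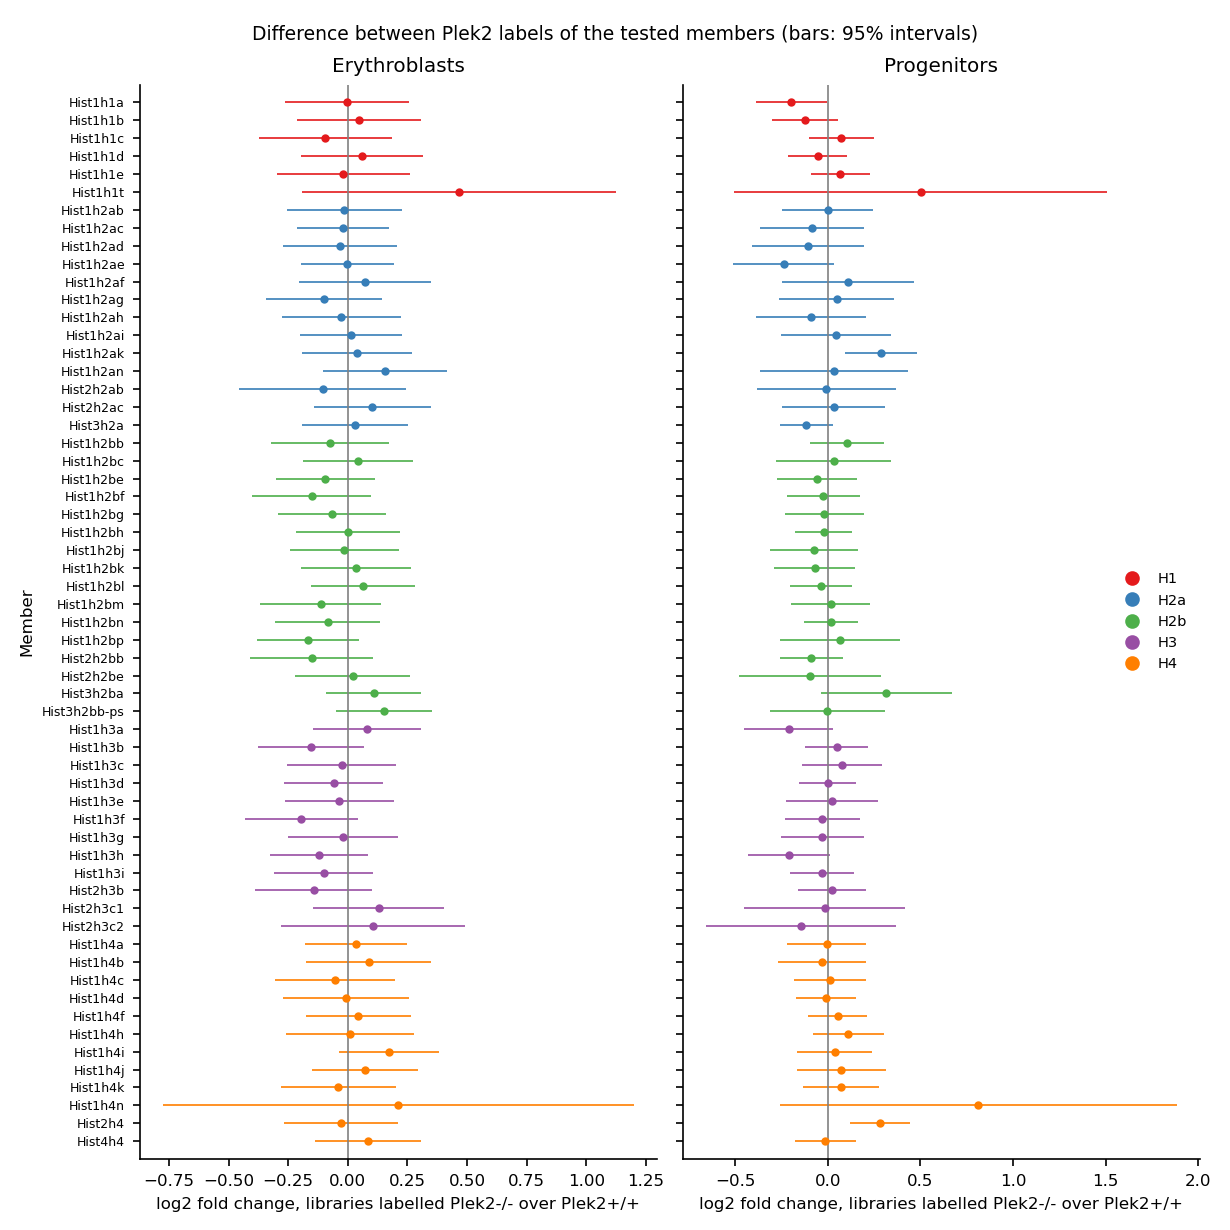
log2 fold change of the libraries labelled Plek2-/- over Plek2+/+ (x axis) with 95% intervals for the 59 tested members (y axis, coloured by class), in erythroblasts (left) and progenitors (right); the x axes of the panels differ in range. Points scatter around 0, and the widest intervals belong to Hist1h4n and Hist1h1t.

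The smallest p in erythroblasts belonged to Hist1h4i, at 139 and 163 CPM in Plek2+/+ and 169 and 169 CPM in the libraries labelled Plek2-/-, which is 0.17 on the log2 scale (SE 0.10, edgeR adjusted p = 0.447). Hist1h3f had -0.20 and Hist1h2bp -0.17, with edgeR adjusted p = 0.451 and 0.469. In progenitors Hist2h4 was at 62.2 and 63.0 CPM in Plek2+/+ and at 71.2 and 76.5 CPM in the libraries labelled Plek2-/-, with 0.28 (SE 0.07, edgeR adjusted p = 0.0685). Its groups did not overlap there, while in erythroblasts they did. Hist1h2ak was at 104 and 98.4 CPM against 129 and 111 CPM, with 0.29 (SE 0.08, edgeR adjusted p = 0.116), and Hist1h1a at 706 and 723 CPM against 647 and 565 CPM, with -0.20 (SE 0.08, edgeR adjusted p = 0.278). For the difference of effects the smallest p belonged to Hist1h3a at 0.32 (edgeR adjusted p = 0.293), Hist2h4 at -0.28 (edgeR adjusted p = 0.321) and Hist1h2ae at 0.27 (edgeR adjusted p = 0.350).

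Groups of 2 libraries each did not overlap for 5 members upward and 9 downward in erythroblasts, where the background was 21.5% and 23.9% of genes. In progenitors they did not overlap for 4 upward and 10 downward, with a background of 19% and 33.2%. The members moved together between replicates: 57 of 59 were higher in the first than in the second progenitor library labelled Plek2-/-, whose member sums differed by 12.3%. In Plek2+/+ erythroblasts 55 of 59 were higher in the second library, with sums 11.2% apart. The same count was not made over all genes, so a shift of the whole library cannot be told apart. The progenitor count and median rested on the progenitor libraries labelled Plek2-/-. Without the first of them the member median was -0.13, beside -0.01 over all genes. Without the second it was 0.10, beside -0.01 over all genes. In erythroblasts no library changed the count of 0.

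Markers and regulators were read beside the label comparisons. In erythroblasts 8 of 11 neutrophil markers were called lower in the libraries labelled Plek2-/-, and in progenitors all 11 were called higher, while 0 members were called in either. Of the replication genes, 3′ processing genes, chaperones and histones outside the clusters, none was called in either population or in the difference of effects. One transcription gene was called, Pou2af1, the B cell partner of the octamer factors, which fell in erythroblasts from 30.0 and 26.7 CPM to 15.8 and 10.8 CPM (edgeR adjusted p = 0.00771). Its difference of effects was -1.24 (edgeR adjusted p = 0.0117). There 3 of 8 B cell markers fell as well. No H2a or H2b gene was called in erythroblasts, where 2.84% of all genes were called. With so low a share, this cannot tell whether genes with the octamer differed. A link between Pou2af1 and these genes was not tested.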

How the data were processed

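Total RNA of 8 libraries in 4 groups was sequenced, per the labels. Tools listed in the submitters' processing notes are STAR 2.5.2a, cutadapt 1.13, DESeq2 1.14.1 and HTSeq 0.6.1pl, with mm10 as the build. The main table holds raw read counts per gene symbol as the authors deposited them. A second deposited table holds a signal, the same counts divided by 1 size factor per library, and served only to read those factors. Not given in the sources used here are the annotation, the strand setting, the treatment of reads with several matching places and any selection of tailed RNA.

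From the counts, edgeR 4.0.16 in R 4.3.3 was run with TMM scaling, its default expression filter and the quasi-likelihood test, with Benjamini-Hochberg adjustment over all genes tested and a threshold of 0.05. Label comparisons used the 4 libraries of a population. Population contrasts and the difference of effects used all 8. The biological coefficient of variation was 8.12% for erythroblasts, 7.17% for progenitors and 7.62% for all. Alternatives were DESeq2 1.42.0, limma-voom (limma 3.58.1), other scalings and filters, each library left out in turn, and a replicate block. Scripts were checked on simulated data. Replicate libraries differed by more than sampling noise (chi-square per degree of freedom 5.65 to 15.7 over all genes). Over the members it was 48.5 in Plek2+/+ erythroblasts and 16.6 in those labelled Plek2-/-. In progenitors it was 4.69 in Plek2+/+ and 10.4 under the other label.

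Gene positions, transcripts, 50-base window uniqueness and stem-loops came from GENCODE vM21 on GRCm38, and promoters from RefSeq on GRCm38.p6.

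The members and gene lists were chosen with earlier results of these data known. One marker gene is not reported here and was left out of its list. Genes were named by rule: the 3 most abundant of each class, every Hist1h1 gene, each Hist2, Hist3 and Hist4 member with a mean count of at least 20, the 4 highest and 4 lowest called members of the population contrasts, up to 15 called members of the others, and 2 genes of each other list. Where no member was called, the 3 of lowest p were named, a choice made after the values were seen, and so were the other genes named from the lists and the neighbours.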

Additional observations from a re-analysis of the deposited data

How the results depend on the processing

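Under both labels, 59 members were called higher in erythroblasts with each alternative run, except library totals alone, which called 58 of 59, and the filter of at least 50 counts in 2 libraries, under which 58 were tested and all 58 called. None of the named members that were followed through these runs changed sign. The neighbours and the genes of the other lists were read on the TMM scale only. Whether their smaller values keep their sign with library totals alone was not tested. The member medians between labels lie near 0 and did change sign, with ranges of -0.10 to 0.08 in erythroblasts, -0.13 to 0.10 in progenitors and -0.14 to 0.17 for the difference of effects. With library totals alone the summed ratio of erythroblasts over progenitors was 3.61 in Plek2+/+ and 3.71 under the Plek2-/- label, and the split of all genes called higher and lower moved from 4818 and 5047 to 2111 and 9169 in Plek2+/+, and from 5009 and 5242 to 2309 and 8957. For progenitors between labels, 2 members were called with no filter (Hist2h4 and Hist1h2ak) and 1 with the replicate block (Hist1h2ak, edgeR adjusted p = 0.0469). The member count also rose when 1 progenitor library labelled Plek2-/- was left out, and so did the calls over all genes. The difference of effects gave 0 to 1, the 1 being Hist2h4 at -0.47 (edgeR adjusted p = 0.0389) without the first erythroblast library labelled Plek2-/-. Calls relative to the pool under the Plek2-/- label ranged from 18 to 29 with 1 library left out. Where a library was left out, the lone sample of its group was assumed to vary like the others. The cause of these changes was not tested.

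The labels do not say whether replicate numbers pair the samples. Deviations of same-numbered libraries correlated between -0.0988 and 0.143 over the 6 pairs of groups for all genes. For the members alone the range was -0.529 to 0.553. With 2 libraries in a group, these values can neither show nor exclude pairing. With the block, 0 members were called in erythroblasts and in the difference of effects, and 59 in each population contrast. Counts over all genes moved more. Between labels in erythroblasts, 348 genes became 845 with no filter, 579 with the block, 547 with the authors' factors, 230.0 with library totals and 25 to 995 with 1 library left out. In progenitors, 646 became 1315 with no filter and 239 to 2649. For the difference of effects, 742 became 1215 and 401 to 1175. Near-identical genes limit single-gene values, and class sums too if shared reads were dropped. Members under about 3 CPM have wide intervals.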
